A study of Caenorhabditis elegans with 2 samples.

Results

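The genes described here encode the machinery that folds proteins in the cytosol: the HSP70 and HSP90 chaperones with their partners, the chaperonin CCT, prefoldin and the DnaJ proteins. They were chosen by WormBase symbol as all cct, pfd and dnj genes of the deposited count table except dnj-7, dnj-10, dnj-20 and dnj-27, together with hsp-1, hsp-70, hsp-75, hsp-90, hsp-110 and sti-1. The rule found 45 genes among 46748 in the table, all protein-coding: 8 chaperonin, 6 prefoldin, 25 DnaJ and 6 heat shock protein genes. RNA was sequenced from whole wild-type Caenorhabditis elegans hermaphrodites, 5 days old and fed heat-inactivated Escherichia coli OP50, the usual laboratory food bacterium. Sample titles carry the name N2, the strain label leaves the wild type unspecified, and the labels do not say from which event the 5 days were counted. There was 1 group with 2 libraries, so no condition was contrasted. The replicate numbers follow the accession order. Separate cultures are not mentioned in the labels, so differences between the libraries may be technical. The p-values below set such differences against counting error only, not against a spread between cultures.

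HSP70 proteins bind exposed hydrophobic stretches of unfolded chains in cycles of ATP hydrolysis. DnaJ proteins deliver clients to HSP70 and stimulate the hydrolysis, and nucleotide exchange factors of the HSP110 family release them. HSP90 acts later on partly folded clients such as kinases and receptors. CCT is a double-ring chamber built from distinct but related subunits, and prefoldin hands it unfolded actin and tubulin. The word cytosolic does not cover every member, since hsp-75 encodes the mitochondrial HSP90, dnj-21 a subunit of the mitochondrial import motor and dnj-29 the SEC63 protein of the endoplasmic reticulum membrane. The set is therefore defined by its rule.

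The libraries held 28164638 counts in replicate 1 and 31271070 in replicate 2. Of 15 marker genes fixed for tissues of an adult hermaphrodite, 13 had at least 10 counts in both libraries. Yolk and eggshell markers were the highest, with vit-6 at a level of 6231 and cpg-2 at 1737 CPM/kb, counts scaled to library total and exon length. The oocyte markers puf-5 and rme-2 were at means of 683 and 616 CPM/kb. Markers of other tissues differed widely within a tissue. The intestine marker ges-1, listed with the yolk genes, was at 19.4 CPM/kb. The neuron markers snb-1 and rab-3 were at 192 and 1.81 CPM/kb. For epidermis, col-122 was at 513 and dpy-7 at 1.22 CPM/kb, and for body muscle unc-54 was at 95.7 and myo-3 at 9.51 CPM/kb. Of the sperm markers, spe-9 had 18 and 13 counts, spe-11 had 4 and 6, and msp-142 had 3 and 0. In whole animals, fewer cells of a type and less RNA per cell cannot be told apart.

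Levels in CPM/kb are counts scaled to the library's own total (CPM) and divided by the exon length in kilobases, given for replicates 1 and 2 or as mean ± SD (n = 2). All 45 genes were detected, which means at least 10 counts in both libraries, while 62.5% of the 19641 protein-coding genes were. The lowest count of any of the 45 was 95. The set took 1.254% of counts in replicate 1 (95% Wilson interval 1.25% to 1.258%) and 1.277% in replicate 2 (1.273% to 1.281%). Such intervals cover counting error only. Its median level was 69.9 ± 0.253 CPM/kb, beside 11.5 ± 0.202 CPM/kb for the 12268 detected protein-coding genes and 1.28 ± 0.0121 CPM/kb for all protein-coding genes. Of the 45 genes, 42 lay above the median of detected protein-coding genes and 18 were in their highest 10%, above 97.6 CPM/kb. The 3 genes below that median were hsp-70, dnj-24 and dnj-3.

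**Figure D1:**
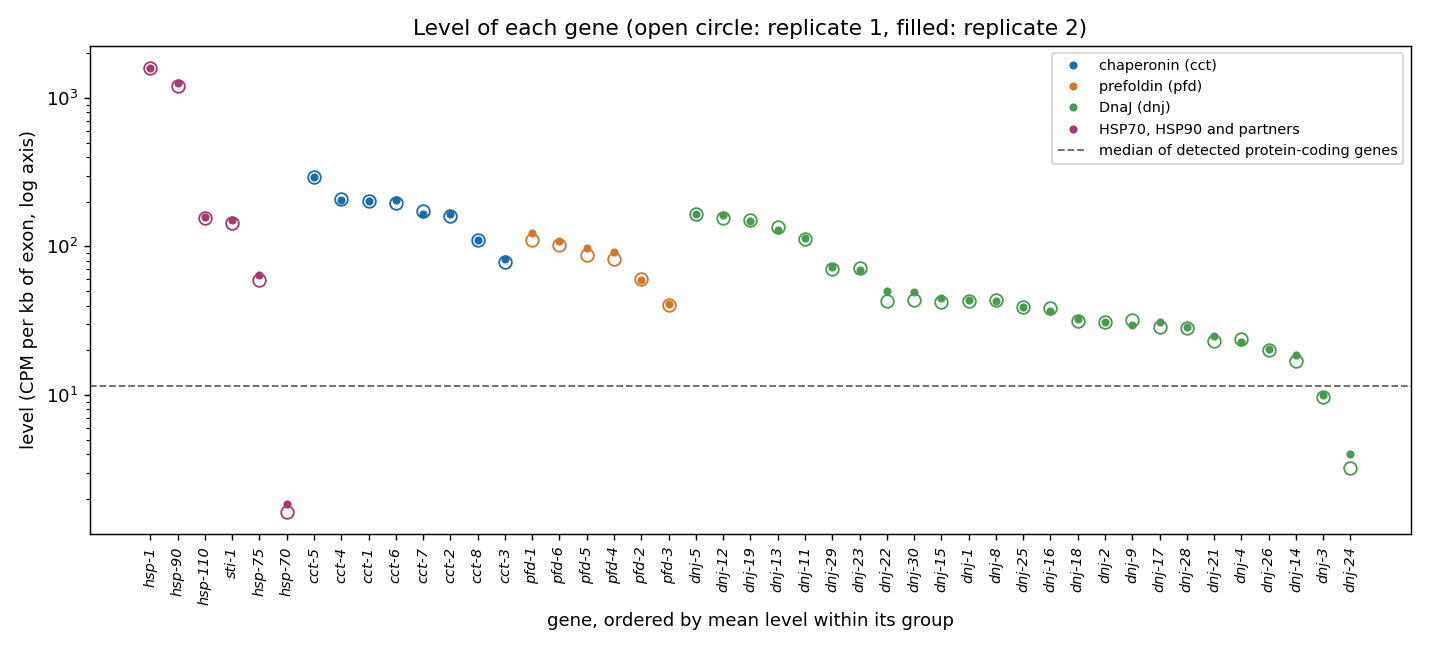
Level of each of the 45 genes in CPM per kb of exon on a log axis, with an open circle for replicate 1 and a filled point for replicate 2, coloured by group and ordered by mean. The dashed line is the median of detected protein-coding genes (11.5 CPM/kb); hsp-1 and hsp-90 stand above 1000 CPM/kb, and hsp-70, dnj-24 and dnj-3 lie under the line.

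The constitutive HSP70 gene and the HSP90 gene stood far above every other member. The HSP70 gene hsp-1 (WBGene00002005, chromosome IV, 17278959 to 17281330) was at 1587 and 1583 CPM/kb, rank 51 among all protein-coding genes. The HSP90 gene hsp-90 (WBGene00000915, chromosome V, 14684918 to 14688545) was at 1199 and 1259.9 CPM/kb, rank 84. The values of the genes did not overlap, and hsp-1 exceeded hsp-90 by 1.29-fold ± 0.0475. The hsp-90 level rests on an annotated 2359 bp, while the deposited RPKM (reads per kilobase, scaled to a read total) imply 2632 bp. With implied lengths, hsp-1 was at a mean of 1581 and hsp-90 at 1102 CPM/kb, a wider gap. These genes together held 48.8% and 49.0% of the counts of all 45. They were also the only members in the highest 1% of detected protein-coding genes, above 915 CPM/kb.

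The genes of their partners were lower. The exchange factor gene hsp-110 was at 155 and 158 CPM/kb, and hsp-1 exceeded it by 10.1-fold ± 0.16. The gene sti-1, whose product bridges HSP70 and HSP90, was at 144 and 151 CPM/kb, and hsp-90 exceeded it by 8.34-fold ± 0.019. Levels of hsp-110 and sti-1 did not overlap but their means differed by 1.06-fold. The mitochondrial HSP90 gene hsp-75 was at 59.4 and 63.9 CPM/kb, and hsp-90 exceeded it by 19.9-fold ± 0.328. With implied lengths, means were 1102 CPM/kb for hsp-90, 141 for sti-1 and 61.2 for hsp-75, so both excesses of hsp-90 would be smaller.

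The heat-inducible HSP70 gene hsp-70 (WBGene00002026, chromosome I, 9320325 to 9322519) was the lowest of the 45. It had 95 counts in replicate 1 (exact 95% Poisson interval 76.9 to 116.1) and 119 in replicate 2 (98.6 to 142.4), or 1.64 and 1.85 CPM/kb. The level of hsp-1 exceeded that of hsp-70 by 968-fold and 856-fold in replicates 1 and 2. Other heat-inducible genes were likewise scarce. The HSP70 genes F44E5.4 and F44E5.5 had 1 count each in each library, under the floor of 3 counts, and as near copies of each other their counts are uncertain. The small heat shock genes hsp-16.2, hsp-16.41 and hsp-16.48 had 30, 30 and 32 counts in replicate 1 and 53, 39 and 22 in replicate 2. A further identifier named hsp-16.48 had 0 counts in both libraries, as did those named hsp-16.1. Of the 9 identifiers matched for the heat-inducible list, 4 were detected, including hsp-70. Copies within the hsp-16 cluster also have uncertain counts.

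Chaperonin genes had the highest median of the 4 groups. All 8 were above the upper quartile of detected protein-coding genes, 44.98 CPM/kb, and 7 were in the highest 10%. Their median was 184.5 ± 0.83 CPM/kb, and they took 0.288% ± 0.00201 of all counts. The highest was cct-5 (WBGene00000380, chromosome III, 4499188 to 4508114), which encodes the epsilon subunit, at 293 and 295 CPM/kb. The lowest was cct-3 (WBGene00018782, chromosome II, 2233540 to 2243539), for the gamma subunit, at 78.5 and 81.7 CPM/kb. Each subunit is present once in every ring of the complex, and the highest gene exceeded the lowest by 3.74-fold in replicate 1 and 3.61-fold in replicate 2.

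Between these ends, 3 chaperonin genes lay close together. The gene cct-4 was at 207 and 205 CPM/kb, cct-1 at 202 and 204 CPM/kb and cct-6 at 195 and 205 CPM/kb. The values of cct-1 and cct-6 overlapped, and so did those of cct-7 (173 and 166 CPM/kb) and cct-2 (159 and 166 CPM/kb). Of the 7 pairs of neighbours in the order, these were the 2 whose library values overlapped. The gene cct-8 followed at 110.7 and 110.8 CPM/kb. That value rests on an annotated exon length of 2358 bp, while the deposited RPKM (reads per kilobase, scaled to a read total) imply 1891 bp and so 138 CPM/kb, which leaves cct-8 seventh of the 8. The coefficient of variation across subunits was 36.8% and 36.4% in the 2 libraries.

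Prefoldin genes had a lower median level than the chaperonin genes they work with, though the ranges overlapped, with cct-3 below pfd-1, pfd-6, pfd-5 and pfd-4. With implied lengths, cct-3 (80.2 CPM/kb) was above pfd-1 (74.8 CPM/kb) and still below pfd-6, pfd-5 and pfd-4. The prefoldin median was 89.9 ± 7.33 CPM/kb, and the chaperonin median exceeded it by 2.06-fold ± 0.158. Without division by length that gap was 2.89 on the log2 scale instead of 1.04, as prefoldin transcripts are short (median 567 bp of exon against 1928 bp). Prefoldin subunits are of 2 kinds, alpha-type (pfd-3 and pfd-5) and beta-type (pfd-1, pfd-2, pfd-4 and pfd-6). The alpha-type genes were at 40.2 and 40.95 CPM/kb (pfd-3) and at 87.5 and 98.2 CPM/kb (pfd-5). Of the beta-type genes, pfd-6 was at 102 and 109 CPM/kb, pfd-4 at 82.0 and 92.0 CPM/kb and pfd-2 at 60.01 and 59.1 CPM/kb.

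The highest prefoldin value belonged to pfd-1 (WBGene00007443, chromosome IV, 11150113 to 11150930), at 110.3 and 123 CPM/kb. That place depends on the length used: 464 bp are annotated, but the deposited RPKM imply 725 bp and a level of 74.8 CPM/kb, below pfd-6, pfd-5 and pfd-4. The gene pfd-3 was lowest with either length (40.6 or 43.6 CPM/kb). The highest subunit exceeded the lowest by 2.74-fold and 3.01-fold in the 2 libraries, and by 2.19-fold with the implied lengths. Only the values of pfd-5 and pfd-4 overlapped among the 5 pairs of neighbours.

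**Figure D2:**
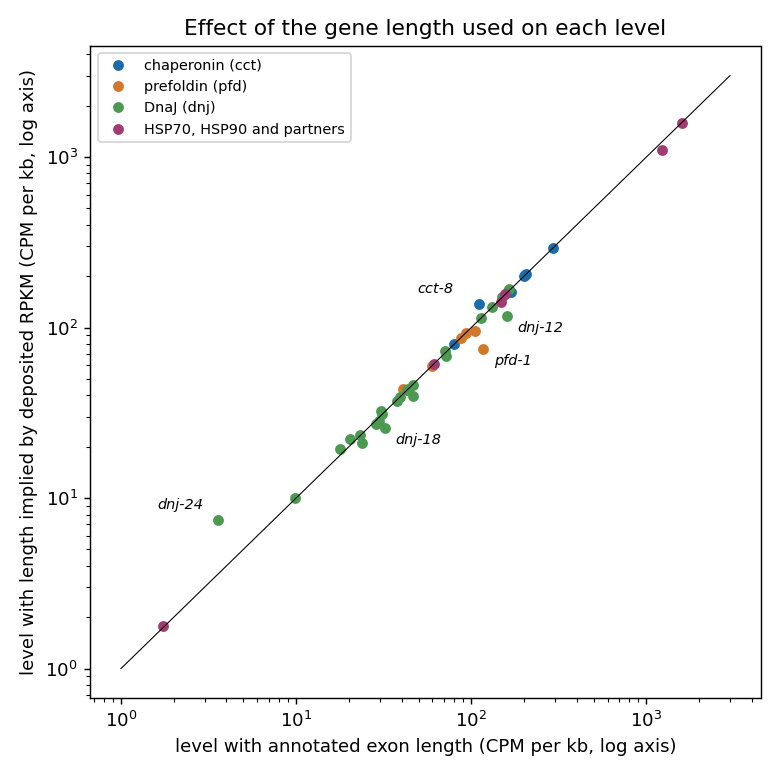
Mean level of each gene with the annotated exon length (x axis) against the level with the length implied by the deposited RPKM (y axis), both in CPM per kb on log axes, with the line of equality. Most genes lie on the line; the labelled genes dnj-24 and cct-8 lie above it, and pfd-1, dnj-12 and dnj-18 lie below it.

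DnaJ genes had the lowest median of the 4 groups and covered a wide range of levels. The median was 39.2 ± 0.0834 CPM/kb, and the chaperonin median exceeded it by 4.71-fold ± 0.0112. The 5 highest genes, from 114 to 165 CPM/kb, made up 51.3% and 50.6% of the summed DnaJ level, or 50.4% and 49.6% with the implied lengths. The summed level of all 25 genes was 1403 and 1421 CPM/kb, and hsp-1 alone exceeded it by 1.12-fold ± 0.0116. The highest and the lowest gene differed by 51.4-fold and 41.2-fold, and by 25.6-fold and 20.5-fold with the implied lengths.

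The highest DnaJ gene was dnj-5 (WBGene00001023, chromosome II, 6853461 to 6858301), at 166 and 164 CPM/kb. It was followed by dnj-12 and dnj-19, which encode DNAJA-type proteins with a zinc-binding region. The gene dnj-12 was at 156 and 162 CPM/kb, or at a mean of 117 CPM/kb, below dnj-13, with the implied length, and dnj-19 was at 151 and 148 CPM/kb. The gene dnj-13 encodes the DNAJB1-type protein that works with HSP-1 and HSP-110 in dissolving aggregates, and it was at 134 and 129.8 CPM/kb. The level of hsp-1 exceeded that of dnj-13 by 12.01-fold ± 0.258. The gene dnj-11, for a homologue of the ribosome-associated yeast protein zuotin, was at 113 and 114 CPM/kb. No neighbouring values overlapped within these 5 genes.

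A gap of 1.59-fold separated dnj-11 from dnj-29 (70.1 and 73.1 CPM/kb) and dnj-23 (71.6 and 69.7 CPM/kb), whose values overlapped. The next 14 genes spanned 23.3 to 46.4 CPM/kb. Among them were dnj-25, for auxilin, which uncoats clathrin vesicles (39.1 and 39.2 CPM/kb), and the import motor gene dnj-21 (23.1 and 24.8 CPM/kb). Across the 24 pairs of neighbouring DnaJ genes, the library values of 9 pairs overlapped, 8 of them in this middle range.

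The 4 lowest DnaJ genes were dnj-26, dnj-14, dnj-3 and dnj-24. The gene dnj-26 was at 20.2 and 20.3 CPM/kb. The cysteine string protein gene dnj-14, whose product guards synaptic vesicle release, was at 17.0 and 18.7 CPM/kb. The gene dnj-3 was at 9.74 and 9.95 CPM/kb. The lowest was dnj-24, with 140 and 192 counts or 3.23 and 3.98 CPM/kb. With the implied length of 750 bp, against 1541 bp annotated, its level was 7.41 CPM/kb and still the lowest.

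Other genes of the folding pathway were measured for comparison of levels, without a test between lists. Of 16 cochaperone and regulator genes listed, 15 were matched and all 15 were detected, with a median of 94.8 ± 3.8 CPM/kb. The p23 gene daf-41, an HSP90 cochaperone, was highest at 451 and 481 CPM/kb. It was followed by the immunophilin gene fkb-6 (177 and 182 CPM/kb) and hip-1, for an HSP70-interacting protein (157 and 163 CPM/kb). The genes unc-45 (25.3 and 24.7 CPM/kb), for the myosin chaperone, and unc-23 (4.07 and 4.39 CPM/kb), for a BAG-family protein, were lowest. Levels of daf-41 were above those of hsp-110 and sti-1 in both libraries.

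Chaperones of the endoplasmic reticulum and mitochondria had a median of 178.7 ± 5.97 CPM/kb over 9 genes. The HSP70 genes hsp-6, of mitochondria (223 and 237 CPM/kb), and hsp-4 and hsp-3, of the endoplasmic reticulum (206 and 203 CPM/kb, and 188 and 189 CPM/kb), led the list. All 3 were lower than hsp-1. The DnaJ genes dnj-7 (15.6 and 16.3 CPM/kb) and dnj-27 (15.7 and 17.1 CPM/kb) were lowest. Chaperonin clients and tubulin cofactors had a median of 150.9 ± 5.47 CPM/kb over 13 genes. The beta-tubulin gene tbb-2 (1705 and 1667 CPM/kb), the alpha-tubulin gene tba-2 (1229 and 1186 CPM/kb) and the actin gene act-2 (994 and 976 CPM/kb) were highest. The tubulin cofactor gene tbce-1 (43.8 and 44.95 CPM/kb) and act-1 (47.7 and 50.4 CPM/kb) were lowest. The annotated exon length was 0.80 of the implied length for tba-2, 0.87 for act-1 and 0.999 for tbce-1. With implied lengths the level of tba-2 would thus be lower. The order of tbce-1 and act-1 also depends on the length used. Actin genes share nearly all of their coding sequence, so the split between them is uncertain.

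**Figure D3:**
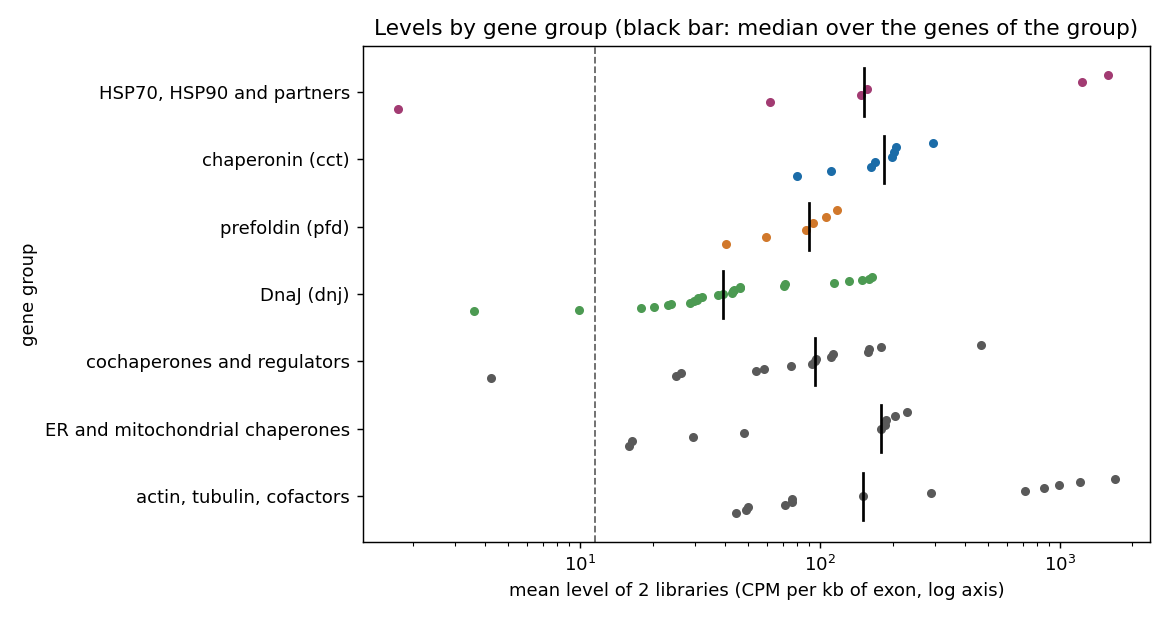
Mean level over the 2 libraries in CPM per kb of exon (log axis) for every gene of 7 groups, 1 point per gene, with a black bar at the group median and a dashed line at the median of detected protein-coding genes. Chaperonin genes run from 80.1 to 294 CPM/kb and prefoldin genes from 40.6 to 117 CPM/kb, while the HSP group spans hsp-70 at 1.74 to hsp-1 at 1585 CPM/kb.

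The 45 genes were spread over the autosomes, with 9 on chromosome I, 10 on II, 9 on III, 9 on IV and 7 on V. Chromosome X held 1 of them, dnj-14, or 2.22%, beside 14.5% of detected protein-coding genes. Of the 8 chaperonin genes, cct-1, cct-2, cct-3 and cct-4 lie on chromosome II. A protein-coding neighbour upstream on the same strand within 1000 bp was annotated for 13 genes (28.9%, beside 28.7% of detected protein-coding genes), among them hsp-75, pfd-6 and pfd-2. Exons of 12 genes overlapped those of another gene, by at most 6.26% of the exon length. The largest overlaps were those of cct-1 with T05C12.8 (117 bp, 10 and 18 counts in the other gene) and dnj-14 with dhhc-10 (72 bp, 214 and 255 counts). Both are on the opposite strand, and no source used here gives the strand setting of the counting.

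The libraries gave nearly the same levels for this set. A comparison by exact binomial test (two-sided, on counts) covered 14397 genes, with TMM scaling (edgeR) and Benjamini-Hochberg adjustment. Its only noise term is counting error, and it sets library against library, since no conditions differ. At an adjusted p under 0.05 with a difference of 2-fold or more, 0 of 45 genes were called, beside 0.757% of all genes tested (0.222% higher and 0.535% lower in replicate 2). At an unadjusted p under 0.05 there were 16 of 45, beside 20.8% of all genes tested, and totals or DESeq2 size factors in place of TMM also gave 0 calls. Without the fold requirement, 8 of 45 had an adjusted p under 0.05, or 17.8%, beside 11.2% of all genes tested. Deeply counted genes pass more easily, and of genes with at least 1000 counts in both libraries 23.2% passed, beside 22.9% of the 35 members that deep.

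Of these 8 genes, cct-7 was lower in replicate 2 and the others were higher: hsp-90, hsp-75, cct-6, dnj-22, pfd-1, pfd-4 and pfd-5. The share of all genes tested was 4.81% lower and 6.43% higher. On the log2 scale, replicate 2 differed from replicate 1 by 0.06 for hsp-90 (95% counting interval 0.05 to 0.08; exact binomial test, adjusted p = 3.1e-18). The gene dnj-22 differed by 0.20 (0.09 to 0.31; exact binomial test, adjusted p = 0.00552), the largest of the 8. The genes dnj-24 and dnj-30 had log2 ratios of 0.30 (-0.02 to 0.62) and 0.16 (0.04 to 0.29), and neither passed (exact binomial test, adjusted p = 0.301 and 0.0611). In all, 30 of 45 genes (66.7%) had a higher value in replicate 2, beside 53.1% of all genes tested, and the median log2 ratio was 0.02, beside 0.01. Among members with at least 100 counts in both libraries, the median absolute log2 ratio was 0.05, beside 0.07 over the 8572 such genes. With at least 1000 counts it was 0.05 for the members and 0.05 for all genes.

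Prefoldin genes had the highest median log2 ratio among the 4 groups, 0.13, with 5 of 6 higher in replicate 2. For pfd-4 the ratio was 0.16 (0.05 to 0.27; exact binomial test, adjusted p = 0.0349), and for pfd-1 and pfd-5 it was also 0.16 (adjusted p = 0.0266 and 0.0212 in the exact binomial test). Exon length moved with this difference. Over all genes with at least 100 counts in both libraries, those with under 700 bp of exon had a median log2 ratio of 0.13 and 81.8% were higher in replicate 2, and those of at least 2000 bp had a median of -0.03 and 34.4% were higher. Under 700 bp of exon are annotated for 5 of the 6 prefoldin genes. The part of length in the prefoldin difference was not tested. Across the 45 genes, exon length and log2 ratio had a Spearman rho of -0.31, as a description of genes that share the same libraries.

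**Figure D4:**
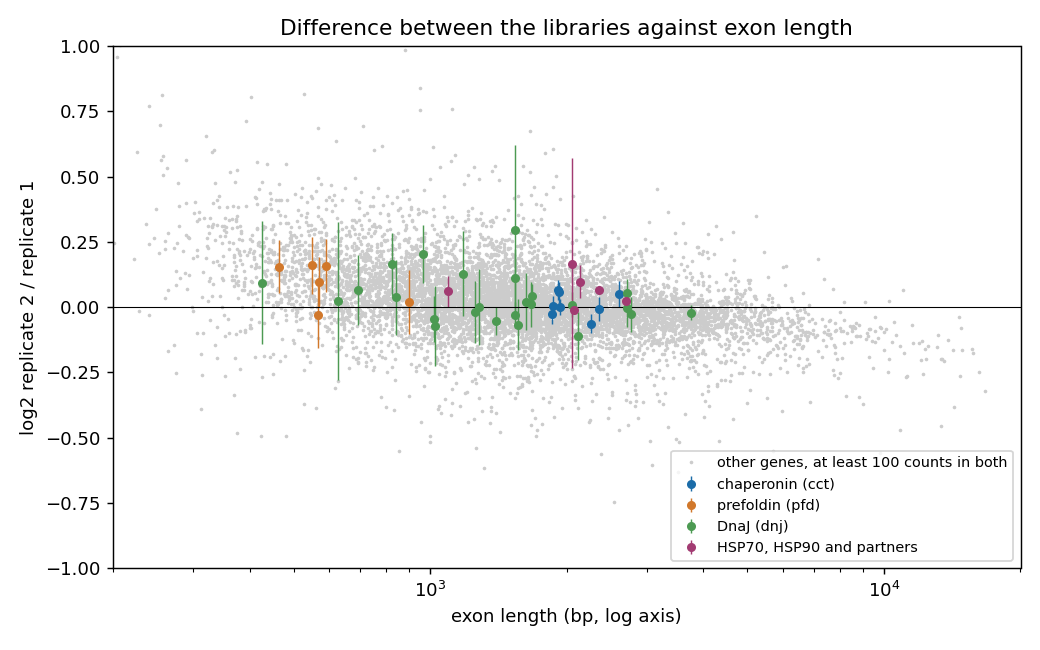
Log2 ratio of replicate 2 to replicate 1 against exon length in bp (log axis) for the 45 genes, coloured by group with 95% counting intervals, over 8528 other genes with at least 100 counts in both libraries in grey (71 of these are outside the axes or have no annotated length). All 45 genes lie between -0.11 and 0.30, and most short genes, the prefoldin genes among them, lie above 0.

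In the pathway lists, 0 genes passed with the 2-fold requirement, beside 0.757% of all genes tested. With the adjusted p alone, 11.2% of all genes tested passed (4.81% lower and 6.43% higher in replicate 2), and 23.2% of genes with at least 1000 counts in both libraries. Of 13 clients and cofactors 8 passed, all lower in replicate 2, with log2 ratios from -0.15 for act-5 to -0.03 for act-2. Of 15 cochaperones and regulators, daf-41, chn-1 and bag-1 were higher and hsf-1, for the heat shock transcription factor, was lower (log2 ratio -0.14; exact binomial test, adjusted p = 0.000436). Of the 9 organelle chaperones, hsp-6 and enpl-1 were higher.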

How the data were processed

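The authors deposited raw counts per gene and RPKM per gene for 2 libraries. Per the submitters' processing notes, STAR 2.4.1d, featureCounts 1.4.6-p4 and genome build WBcel235 were used. No source used here gives the counting options or annotation release. Symbols came from the gene name table and exon lengths, biotypes and coordinates from Ensembl release 115 of WBcel235, which held 46449 of 46748 identifiers. CPM used each column's own total. The deposited RPKM were made with a read total that changes with the row number, over 8 classes, and is that of the library itself in only 12.5% of rows, so they served as alternatives and to derive the implied lengths, with each class's total estimated from annotated lengths. Implied and annotated lengths lay within 10% for 36 of 45 genes. TMM factors came from edgeR 4.0.16, size factors from DESeq2 1.42.0 and the exact binomial test (smaller tail doubled, at least 10 counts in the sum, 0.5 added for log2 ratios) from scipy 1.17.1. The test was run on simulated libraries that hold counting error only, so that run cannot check it against any further spread between libraries. The 3-count floor equals 0.107 and 0.0959 CPM.

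The members and lists were chosen with earlier results of these data known. Genes named by rule were all chaperonin, prefoldin and heat shock members, the 6 highest and 4 lowest DnaJ genes, those passing the test, the 3 largest log2 ratios among genes with at least 100 counts in both libraries, and the 3 highest and 2 lowest of each list; further members are named for their role or after their values were seen. The planned split of DnaJ genes by protein sequence and the promoter motif search were not made, as no sequence was used here.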

Additional observations from a re-analysis of the deposited data

How the results depend on the processing

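All 45 genes were detected with either replicate left out, and 44 had at least 100 counts in both. The excess of the set over protein-coding genes, the order chaperonin over prefoldin and over DnaJ, and the ratio of hsp-1 to hsp-70 kept their direction under each alternative run for them, which includes leaving out either replicate. That ratio moved by less than the spread between the libraries, and the sizes that moved by more follow. The log2 excess of the set's median over all protein-coding genes was 5.78, and 5.50 without division by length, 5.61 with implied lengths, 5.62 with RPKM as deposited and 2.61 over detected genes. Chaperonin minus prefoldin was 1.04 on the log2 scale, and 2.89, 1.17 and 1.21 under the first 3 of these alternatives. Chaperonin minus DnaJ was 2.24, and 3.01, 2.24 and 2.28. The highest over the lowest chaperonin gene was 3.68-fold, and 2.73-fold without division by length and 4.18-fold with deposited RPKM. For prefoldin it was 2.88-fold, and 1.79-fold, 2.19-fold and 2.14-fold. The set's share of counts was 1.27%, and 1.30% of protein-coding counts. Calls between the libraries numbered 0, and 8 with no fold threshold. After the data were seen, implied lengths were also tried on the DnaJ genes: the highest over the lowest was 46.3-fold, and 23.04-fold with them, and the 5 highest held 50.96% of the summed level, and 49.999%. The CPM alternative differs by leaving out length; the read totals in the deposited RPKM cycle over 8 row classes. No paired analysis was possible because there is 1 group. With 2 libraries, an SD rests on 1 difference, and hsp-70 and dnj-24 are limited by counting error.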
